A study of Mus musculus with 3 samples.

Results

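The values described here are those of 10 imprinted genes at loci where CTCF is known to act, H19, Igf2, Meg3, Rian, Mirg, Dlk1, Peg10, Sgce, Snrpn and Grb10. They were chosen by name, and all 10 were present among the 52636 genes of the count tables. The cells were JM8.N4 mouse ES cells, a line of the C57BL/6N strain grown without feeders in serum, LIF and both inhibitors of the 2i medium, in which the cohesin subunit RAD21 was fused to an auxin-inducible degron and the plant receptor Tir1 was present. Control cells carried the same degron and received no auxin. Auxin-treated cells received 500 μM indole-3-acetic acid (IAA), an auxin, for 6 h so that RAD21 would be degraded. Single cells were sorted into 96-well plates and read with Smart-SCRB, which counts each captured transcript molecule by its unique molecular identifier (UMI). The experiment was run 3 times, and each replicate holds control and auxin plates of its own. All cells descend from an edited line of 1 strain, so that maternal and paternal copies cannot be told apart in these counts, which come from the 3′ ends of transcripts.

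In an imprinted gene, methylation set in the germ line keeps the copy from 1 parent silent. At Igf2 and H19, CTCF binds the unmethylated maternal control region and, with cohesin, holds the downstream enhancers away from Igf2. In the Dlk1-Dio3 domain the maternal copy makes the noncoding RNAs Meg3, Rian and Mirg and the paternal copy makes Dlk1, and this domain is known for losing Meg3 expression in some cultured pluripotent lines.

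In mm10, H19 (chr7:142575529-142578143, - strand, long intergenic RNA) lies 72.6 kb from Igf2 (chr7:142650766-142666816, - strand, protein-coding). Dlk1 (chr12:109452823-109463336, + strand, protein-coding) is followed at 77.7 kb by Meg3 (chr12:109541001-109571726, + strand, long intergenic RNA), then by Rian (chr12:109603940-109661716, + strand, processed transcript) and Mirg (chr12:109729764-109749460, + strand, long intergenic RNA). Sgce (chr6:4674350-4747207, - strand) and Peg10 (chr6:4747306-4760517, + strand) are protein-coding neighbours. Snrpn (chr7:59982495-60140219, - strand) and Grb10 (chr11:11930508-12038683, - strand), both protein-coding, have no other of the 10 genes beside them.

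RefSeq (GRCm38.p6, the sequence of mm10) gave promoters, windows of 250 bases before and 50 bases after a start, for 7 of the 10 genes. H19, Peg10 and Sgce had no window in the set of promoters used here, which does not mean that RefSeq lacks these genes. Windows of the 3 noncoding RNAs of the Dlk1-Dio3 domain are shown because these genes varied together from cell to cell (below), although they lie apart from each other. All 3 genes lie on the + strand of chromosome 12, and capitals mark CpG dinucleotides, the bases at which imprints are written.
Meg3, chr12:109540746-109541045, + strand: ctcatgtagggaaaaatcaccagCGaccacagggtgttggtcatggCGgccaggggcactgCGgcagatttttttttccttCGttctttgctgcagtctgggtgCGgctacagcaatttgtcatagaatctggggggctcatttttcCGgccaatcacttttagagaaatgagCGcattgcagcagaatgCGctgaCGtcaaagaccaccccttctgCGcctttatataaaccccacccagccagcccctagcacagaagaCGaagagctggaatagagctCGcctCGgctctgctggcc
Rian, chr12:109603695-109603994, + strand: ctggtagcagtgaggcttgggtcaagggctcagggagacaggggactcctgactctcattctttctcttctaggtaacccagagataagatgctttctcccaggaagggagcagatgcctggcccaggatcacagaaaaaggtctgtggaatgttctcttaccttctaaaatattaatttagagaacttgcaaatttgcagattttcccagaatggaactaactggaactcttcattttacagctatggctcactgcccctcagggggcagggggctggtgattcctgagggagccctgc
Mirg, chr12:109734731-109735030, + strand: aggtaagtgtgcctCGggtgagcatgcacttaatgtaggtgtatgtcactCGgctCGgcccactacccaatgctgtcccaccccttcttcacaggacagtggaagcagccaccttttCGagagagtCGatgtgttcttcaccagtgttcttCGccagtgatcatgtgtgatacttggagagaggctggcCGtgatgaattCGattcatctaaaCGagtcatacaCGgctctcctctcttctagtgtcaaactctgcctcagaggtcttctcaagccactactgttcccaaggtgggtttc
The Mirg window is that of a RefSeq start 5.22 kb inside the gene as GENCODE gives it, and it holds the mature microRNAs miR-668-5p, miR-668-3p and miR-485-3p, so that it is not the start of the gene whose level is given here. The Meg3 window shown held 13 CpGs, more than 62.1% of the 32851 promoters of the table. RefSeq gives a further Meg3 window, chr12:109545148-109545447, that held 1 CpG, more than 5.43% of promoters, and neither the cAMP response element nor TATAAA. The Mirg window held 10 and the Rian window 0, against a median of 7. The Meg3 window shown held the cAMP response element TGACGTCA once, its first base 57 bases before the start, and 1.79% of all promoters held it on either strand. It also held TATAAA on both strands, in a single stretch where the matches overlap, and 13.6% of promoters held it on either strand. The letters GGNGGCAG, the core of the CTCF motif, were in the Rian window and in 1 window each of Igf2 and Grb10, against 12.6% of all promoters. These 3 motifs were picked after the windows had been looked at.

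Meg3, Rian and Mirg are also host transcripts of small RNAs. Of the RefSeq microRNAs, 2 hairpins lay within the Meg3 gene on its strand, 3 within Rian and 14 within Mirg, and 1 each within H19 and Igf2. The 26 mature microRNAs of Mirg had 25 different seeds, and the pair that shared a seed is shown with bases 2 to 8 in capitals.
mmu-miR-453: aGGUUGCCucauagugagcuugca
mmu-miR-496a-5p: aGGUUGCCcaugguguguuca
Mature microRNAs were not measured by the assay, and the values below are those of the host transcripts.

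Of 1536 wells on 16 plates, 1335 had more than 2600 detected genes and 1167 were used. For 2 plates of replicate 3, with 168 cells, the deposited annotation and a published list of detected genes per cell disagree on the condition. The plates of replicates 1 and 2 had no match in that list, so that their condition rests on the annotation alone. These plates were left out and used only in alternatives. In replicate 1 the plates are annotated as positive or negative for RAD21, which was read as control and auxin. Replicates 1, 2 and 3 gave 168, 371 and 85 control cells and 169, 290 and 84 auxin-treated cells. The median depth per cell ranged from 72317 UMIs in control cells of replicate 3 to 187088 in auxin-treated cells of replicate 2. Cells were told apart by plate and well, since replicates 2 and 3 used the same 96 well barcodes. Rad21 mRNA was at 20.9, 31.2 and 42.4 counts per 1000000 UMIs (CPM) in the control cells of replicates 1, 2 and 3 and at 19.3, 34.0 and 45.2 CPM in the auxin-treated cells, and the degron acts on the protein, which was not measured here. Replicate 1 differed from the other replicates in which genes had any counts. In both of its sums 162 genes had at least 10 CPM that were at exactly 0 in replicates 2 and 3, the ES cell factor Sox2 and Mcts2 among them, and 30 genes were at 0 in replicate 1 and at 10 CPM or more in both others. When replicate 2 or replicate 3 was set against the other replicates in the same way, 0 genes were found in either direction. Of the 160 annotated genes of the first kind, 36.9% had an exon that overlapped another gene on the same strand, against 8.33% of all genes with at least 10 CPM in replicate 1. Levels of replicate 1 and of the others are therefore given side by side, and a difference in counting and a difference between cultures cannot be told apart there. Each replicate holds both conditions. Replicate 2 stood apart from the others in some markers. Nanog lay between 28.3 and 61.6 CPM on its plates and between 488.5 and 576.6 CPM on the plates used of replicates 1 and 3, and the 4 markers of primed cells summed to 288.7 and 174 CPM against 4.94 to 15.4 CPM. The 10 ES cell markers summed to 4534 and 2947 CPM in replicate 2 and to 8046 to 10190 CPM in the other 4 sums, mostly through Dppa5a. Further markers were also lowest in replicate 2. In control cells of replicates 1, 2 and 3 Klf4 was at 140.7, 2.75 and 72.7 CPM and Tbx3 at 111.0, 1.75 and 129.4 CPM. Esrrb was at 66.8, 17.7 and 124.8 CPM and Zfp42 at 274.9, 83.5 and 183.5 CPM. Tdgf1, at 642, 619.7 and 638.4 CPM, was not lowered in this way, and Utf1 was highest in replicate 2. Pou5f1 was at 273.3 CPM in control cells of replicate 1 and at 8.40 and 12.5 CPM in the others.

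Meg3 differed widely between replicates, also between replicates 2 and 3. Summed over control cells it stood at 11.9 CPM in replicate 1, 778.1 CPM in replicate 2 and 141.5 CPM in replicate 3. In auxin-treated cells it stood at 16.8, 562.6 and 103.5 CPM, listed in the same order. Each replicate kept its place in both conditions, and no plate of any replicate overlapped the range of another. The control plates ranged from 6.65 to 18.0 CPM in replicate 1 and from 702.5 to 872.8 CPM in replicate 2, and the auxin plates from 7.07 to 25.6 CPM and from 507 to 632 CPM. Within replicate 2 the 4 auxin plates lay below all 4 control plates, but within replicate 1 the plates of both conditions overlapped.

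Rian, which carries small nucleolar RNAs in its introns, followed the same order of replicates. Its level was 8.21, 237.1 and 72.5 CPM in the control cells of replicates 1, 2 and 3 and 14.2, 223.2 and 62.5 CPM in the auxin-treated cells. Mirg, the microRNA host, was at 1.44, 19.1 and 3.79 CPM in control cells and at 0.104, 13.1 and 2.99 CPM in auxin-treated cells. Its replicate 1 values rest on 26 and 2 UMIs. Dlk1, a transmembrane protein made from the other parental copy, stayed between 0.156 and 0.856 CPM in all 6 sums.

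Sgce, which encodes ε-sarcoglycan, and Peg10, a gene derived from a retrotransposon, lie 98 bases apart, start to start, on opposite strands of chromosome 6. Sgce was at 63.1, 24.4 and 19.6 CPM in the control cells of replicates 1, 2 and 3 and at 43.6, 36.0 and 20.3 CPM in the auxin-treated cells. In replicate 1 both auxin plates, at 41.2 and 45.7 CPM, lay below both control plates, at 60.3 and 66.2 CPM. In replicate 2 the order turned, with control plates between 19.7 and 31.6 CPM and auxin plates between 30.1 and 44.5 CPM. Peg10 was at 8.38, 1.22 and 0.330 CPM in control cells and at 3.69, 1.82 and 1.35 CPM in auxin-treated cells. Both genes were thus lower with auxin in replicate 1 and higher with auxin in replicates 2 and 3.

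Snrpn encodes the SmN protein of spliceosomal particles, and its order of replicates was not that of Meg3. It was at 40.3, 5.59 and 6.93 CPM in control cells of replicates 1, 2 and 3, and at 50.0, 3.27 and 2.24 CPM in auxin-treated cells. All plates of replicate 1 lay between 32.8 and 51.9 CPM and all plates used of replicates 2 and 3 between 2.24 and 6.93 CPM. In replicate 2 the 4 auxin plates, from 2.94 to 3.54 CPM, lay below the 4 control plates, from 5.22 to 6.56 CPM. Snurf, which shares its transcript with Snrpn, was at 0 in every cell used. Exons of Snrpn overlap those of Snurf and Gm38393 on the same strand, and how reads of shared exons were assigned is not given in the sources used here, so that the high level in replicate 1 is uncertain. Exons of Meg3, Rian and Mirg overlap 3, 9 and 9 other genes on the same strand. Sgce, Peg10, Grb10 and Dlk1 overlap 0 other genes in their exons, and Sox2, at 0 in replicates 2 and 3, overlaps 0 as well. Grb10, an adaptor that dampens signalling from the insulin and IGF1 receptors, was at 6.55, 19.7 and 9.40 CPM in control cells and at 2.70, 17.9 and 4.04 CPM in auxin-treated cells. Its auxin level was the lower in each of the 3 replicates.

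**Figure D1:**
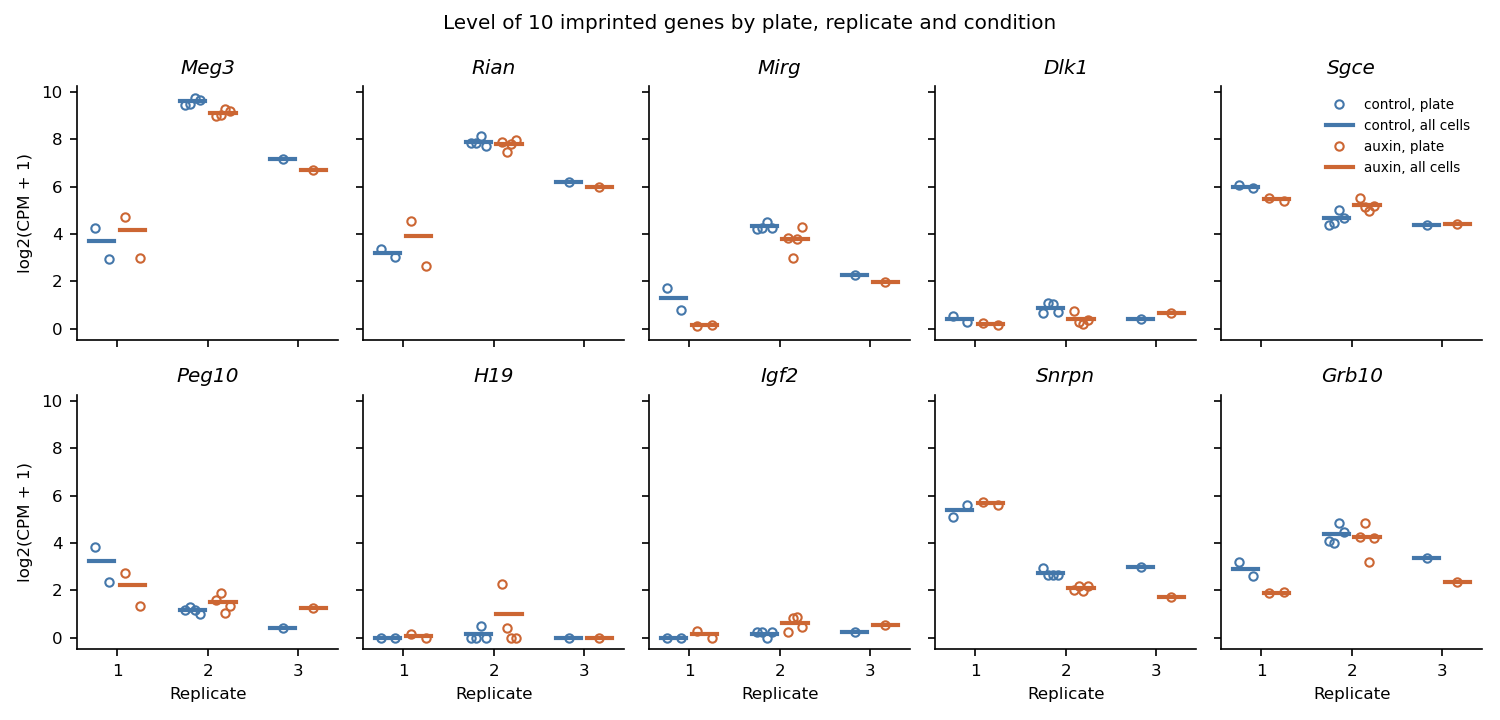
Level of the 10 genes on the log2(CPM + 1) scale by replicate (x axis), in control (blue) and auxin-treated (orange) cells. Open points are plates and bars are all cells of a replicate and condition. Meg3, Rian and Mirg are highest in replicate 2, Snrpn in replicate 1, and H19, Igf2 and Dlk1 lie near 0 throughout.

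H19 and Igf2, the pair whose insulation by CTCF is the textbook case, were almost silent. H19, a maternally expressed noncoding RNA, was counted 0, 5 and 0 times in the control cells of replicates 1, 2 and 3 and 1, 49 and 0 times in the auxin-treated cells. Of the 49 UMIs, 39 came from 1 cell. The 0 of 168 control cells in replicate 1 allow a share of positive cells of up to 1.79%, taken as 3 cells of the total, and the 0 of 85 and 0 of 84 cells in replicate 3 allow up to 3.53% and 3.57%. The exact Clopper-Pearson 95% upper bounds are 2.17%, 4.25% and 4.30%, all for counting error only. Igf2, a paternally expressed growth factor, was counted 0, 6 and 1 times in control cells and 2, 27 and 3 times in auxin-treated cells. In replicate 2 it was found in 5 of 371 control cells, or 1.35% (exact Clopper-Pearson 95% interval 0.439% to 3.12%), and in 12 of 290 auxin-treated cells, or 4.14% (2.16% to 7.12%). No cell held both RNAs. Of 10 genes not expected in ES cells, 7 were found in under 5% of cells in each of the 6 sets, so that H19 and Igf2 cannot be told from such a background. Cd3e, Myh6 and Ins2, the other members of that list, reached 34.1%, 11.7% and 7.28%, and Ins2 lies beside Igf2.

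The highest control replicate over the lowest, on the log2(CPM + 1) scale, gave 5.91 for Meg3, 4.69 for Rian, 3.04 for Mirg, 2.65 for Snrpn, 1.64 for Sgce and 1.46 for Grb10. Over the 10091 genes with at least 10 CPM in a control sum, a filter that favours genes high in 1 replicate, the median was 0.90. Of these genes 1.20%, 3.00%, 11.2%, 13.5%, 25.7% and 29.6% exceeded the values of Meg3, Rian, Mirg, Snrpn, Sgce and Grb10, and nothing is read from these shares about the members. Between auxin-treated sums it was 4.98 for Meg3, 3.88 for Rian and 3.97 for Snrpn. In each of these ratios the highest or the lowest value was that of replicate 1, so that they cannot be told apart from the difference in counts described above. Meg3, Rian and Mirg were also higher in replicate 2 than in replicate 3, and the markers named above moved with replicate 2. Their part in the difference was not tested, and no test between replicates was run. Each replicate holds 1 control and 1 auxin sum. In sums over cells, fewer expressing cells and less RNA per cell give the same value, and the shares of positive cells are therefore given next.

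Meg3 was present in few cells of replicate 1 and in most cells of the others. A Meg3 UMI was found in 21 of 168 control cells (12.5%) and 23 of 169 auxin-treated cells (13.6%) of replicate 1. The shares were 93.3% of 371 and 90.0% of 290 cells in replicate 2 and 84.7% of 85 and 69.0% of 84 cells in replicate 3. In replicate 1 the tenth of cells with the most Meg3 held 98.1% of its UMIs in control and 97.5% in auxin-treated cells, with up to 35 and 80 UMIs in 1 cell. If the same UMIs had been spread over the cells in proportion to depth, 69.1% and 82.0% of cells would have held one. More cells were thus without Meg3 than depth would give, and the cells with it, holding a median of 5 and 9 UMIs, were a minority.

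Rian was distributed likewise. Of control cells, 11.3%, 90.6% and 64.7% held it in replicates 1, 2 and 3, and of auxin-treated cells 13.02%, 87.2% and 60.7%. Its cells were largely the Meg3 cells. In replicate 1, Rian was present in 57.1% of Meg3-positive and in 4.76% of Meg3-negative control cells, and in 65.2% and 4.79% of auxin-treated cells. In replicate 2 it was present in 96.8% of Meg3-positive and 4.00% of Meg3-negative control cells, and in 94.3% and 24.1% of auxin-treated cells. In replicate 3 the shares were 73.6% and 15.4% in control and 75.9% and 26.9% in auxin-treated cells. Mirg was found in 43.7% of control and 36.6% of auxin-treated cells of replicate 2, of which 161 of 162 and 105 of 106 also held Meg3.

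**Figure D2:**
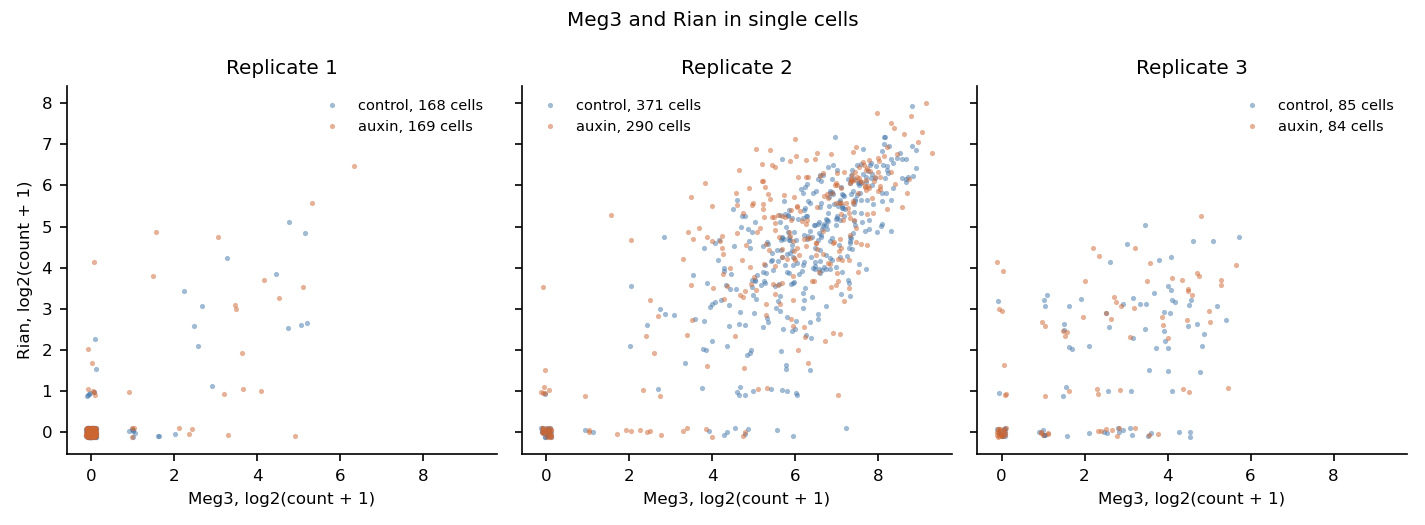
Meg3 and Rian UMI counts of every cell used, on log2(count + 1) axes with a small random offset, for replicates 1 to 3, in control (blue) and auxin-treated (orange) cells. Most cells of replicate 1 sit at 0 for both RNAs, and in replicates 2 and 3 most cells hold both.

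Sgce was patchy in all replicates. Of control cells, 58.9%, 65.8% and 42.4% held it in replicates 1, 2 and 3, and of auxin-treated cells 50.9%, 62.4% and 35.7%. Even spreading of its UMIs would have given between 73.2% and 99.0%. Peg10 was found in 19.05%, 8.36% and 2.35% of control cells and in 14.8%, 9.31% and 2.38% of auxin-treated cells. In replicate 1 it was present in 28.3% of Sgce-positive against 5.80% of Sgce-negative control cells, and in 24.4% against 4.82% of auxin-treated cells. In replicate 2 the shares lay closer, at 9.84% against 5.51% without auxin and 11.05% against 6.42% with it, and in replicate 3 all 4 Peg10-positive cells held Sgce. Grb10 also fell short of even spreading. It was found in 16.1%, 38.5% and 29.4% of control cells and in 11.8%, 41.4% and 15.5% of auxin-treated cells, where even spreading would have given 26.1% to 86.4% over the 6 sets.

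Snrpn was spread more evenly. In replicate 1 it was found in 87.5% of control and 94.1% of auxin-treated cells, close to the 96.4% and 98.3% of even spreading. In replicate 2 the shares were 36.9% and 38.3%, where even spreading would have given 49.0% and 40.9%. In replicate 3 they were 31.8% and 13.1%, where it would have given 38.3% and 16.1%. Where Snrpn was low, its share thus lay nearer to even spreading than that of Meg3 in replicate 1.

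**Figure D3:**
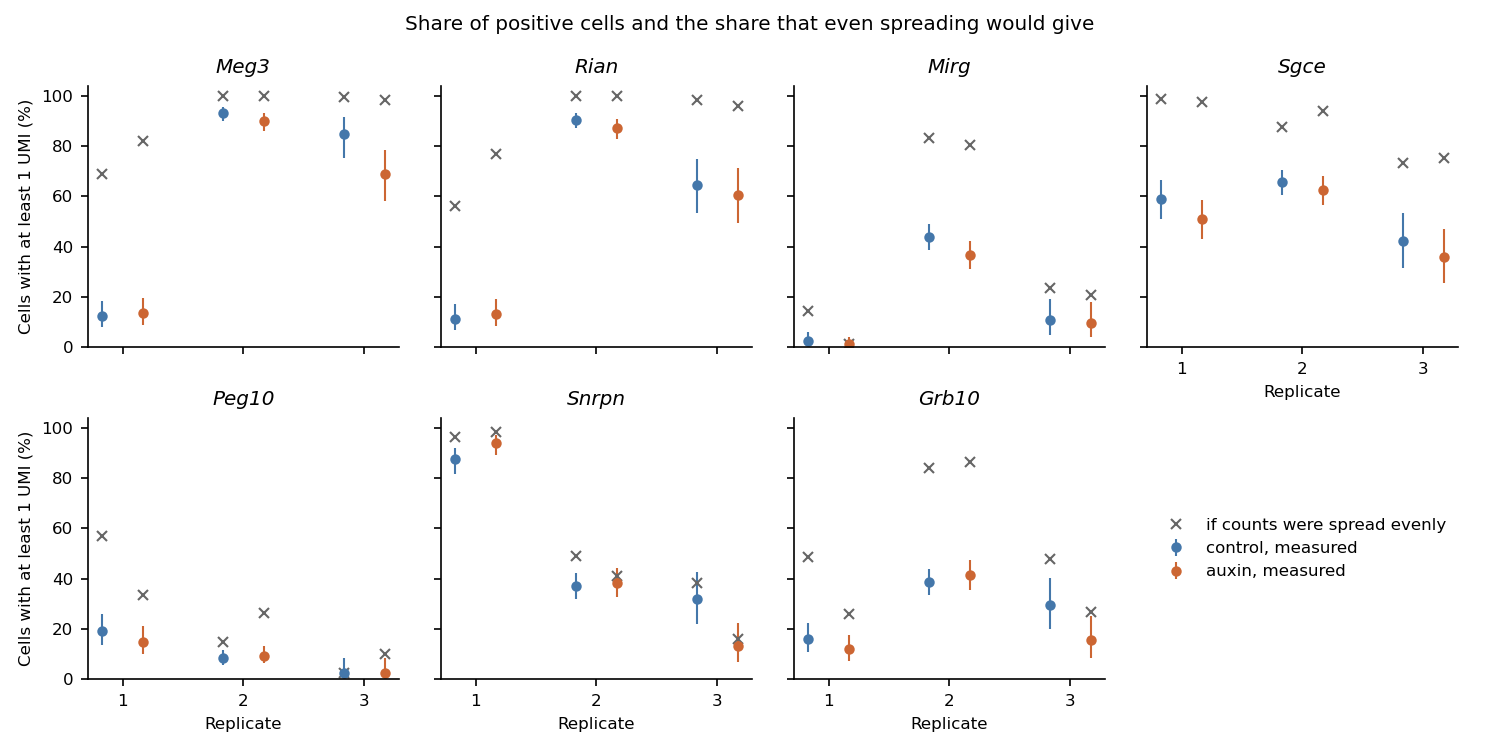
Percent of cells with at least 1 UMI in each replicate (x axis), in control (blue) and auxin-treated (orange) cells, with exact 95% binomial intervals for counting error. Crosses give the share expected if the same UMIs were spread in proportion to depth. Meg3, Rian and Sgce of replicate 1 and Grb10 of replicate 2 lie far below their crosses, and Snrpn of replicate 1 lies near its own.

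To compare conditions at equal depth, each cell was thinned to 20000 UMIs. In this draw the share of positive cells was lower with auxin in all 3 replicates for Sgce, Grb10 and Mirg, but each of them lost that pattern under another setting. For Sgce the difference, auxin minus control, was -6.77, -3.73 and -5.86 percentage points, averaging -5.45 ± 1.56 (SD over 3 replicates; exact sign-flip permutation, two-sided, p = 0.25). For Grb10 it was -3.58, -4.33 and -5.42 points, averaging -4.45 ± 0.927 (exact p = 0.25). For Mirg it was -1.79, -4.42 and -3.35 points, averaging -3.18 ± 1.32 (exact p = 0.25). With 3 replicates 0.25 is the smallest p this test can give, and none of the 10 genes passed 0.05. The Sgce level in CPM was higher with auxin in replicates 2 and 3 although its share was lower, so that no order is read from the Sgce share. In replicate 2 the Sgce difference was 3.89 points at 50000 UMIs and 1.24 points in a second random draw, and the Grb10 difference was 2.84 points without thinning. In replicate 3 the Mirg difference was 0.510 points with the plates as in the source values. Meg3 differed by 0.539, -5.83 and -4.87 points, a mean of -3.39 ± 3.43, and Rian by a mean of -0.501 ± 1.66. Snrpn differed by 0.866, -1.42 and -6.92 points. The other members, H19, Igf2, Dlk1 and Peg10, had means between -0.446 and 1.05 points.

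Whether auxin changed the level of these genes was tested on the summed counts of the 3 replicates with edgeR across all genes. Of 17514 genes tested, 0 (0%) had an adjusted p under 0.05, 33 had an unadjusted p under 0.05, and DESeq2 also called 0. Of the 10 imprinted genes 7 passed the filter on low counts, and 0 of them were called. H19, Igf2 and Dlk1 did not pass the filter. In a fit without it their log2 fold changes were 2.82 ± 1.92, 1.97 ± 1.59 and -0.58 ± 1.27 (SE, edgeR adjusted p = 1.00 for each), and most H19 UMIs came from 1 cell. The spread between replicates was large in this fit. In simulated sums with 200 genes changed 4-fold, 0% of them were recovered without a replicate term and 97% once the replicate entered as a block. Of 200 genes changed 2-fold, 0% and 31% were recovered, so that a 2-fold change would often be missed. These rates pool all changed genes of those sums, and whether they hold for each imprinted gene was not tested. In the real sums, the standard errors of the 7 imprinted genes with the block ran from 0.17 for Meg3 to 0.58 for Peg10. With the block, edgeR called 3 genes (0.0171%) and DESeq2 called 57 (0.325%), and 0 of the 7 imprinted genes were called by either, DESeq2 giving no adjusted p for Peg10 and Mirg.

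With the block, Meg3 had a log2 fold change, auxin over control, of -0.20 ± 0.17 (SE; 95% interval -0.58 to 0.19; edgeR adjusted p = 0.901). Replicate 1, where few cells held Meg3, went the other way. Without replicate 1 the Meg3 value was -0.46 ± 0.12, with an interval that left out 0 (-0.71 to -0.21; edgeR unadjusted p = 0.00148, adjusted p = 0.320). Without replicate 2 or 3 it was -0.01 ± 0.20 or -0.08 ± 0.21, and with the plates as in the source values it was -0.07 ± 0.16. For Rian it was 0.11 ± 0.18 (-0.29 to 0.51; edgeR adjusted p = 0.948). The intervals of both RNAs leave out a 2-fold change in either direction, a log2 change of 1. Sgce stood at 0.01 ± 0.21 (-0.47 to 0.49; edgeR adjusted p = 0.997), and its interval also leaves out a 2-fold change. For Peg10 the value was 0.07 ± 0.58, with an interval from -1.25 to 1.39 that does not. The signs of these 3 genes changed with single replicates. Without replicate 1, 2 or 3 in turn the blocked value of Peg10 was 1.005, -0.32 or -0.35. Sgce then stood at 0.33, -0.29 or -0.02 and Rian at -0.15, 0.26 or 0.26. Snrpn stood at -0.51 ± 0.31 (-1.20 to 0.19; edgeR adjusted p = 0.865). Grb10 stood at -0.83 ± 0.30 (-1.51 to -0.15; edgeR unadjusted p = 0.0230, adjusted p = 0.775) and Mirg at -1.04 ± 0.51 (-2.21 to 0.12; edgeR unadjusted p = 0.0732, adjusted p = 0.848). These values moved with single replicates. Without replicate 1, 2 or 3 in turn the blocked value was -0.57, -1.25 or -0.68 for Grb10, whose interval then held 0 without replicate 1 and without replicate 3, -0.48, -1.69 or -1.35 for Mirg and -1.13, -0.26 or -0.23 for Snrpn, whose interval left out 0 without replicate 1. With the plates of replicate 3 as in the source values Grb10 stood at -0.57 (-1.20 to 0.07) and Mirg, whose interval also held 0, at -0.70, and with these plates as annotated at -0.74 (-1.36 to -0.11) and -1.18 (-2.27 to -0.10), with edgeR adjusted p between 0.717 and 0.985. Grb10 and Mirg were lower with auxin in 3 of 3 replicates, as were 2868 of the 17514 genes (16.4%). Without the block the standard errors ran from 0.65 to 1.48 and the log2 fold changes were -0.47 for Meg3, -0.10 for Rian, -0.64 for Mirg, -0.19 for Sgce, -0.68 for Peg10, 0.09 for Snrpn and -0.58 for Grb10 (edgeR adjusted p = 1 for each). The signs of Rian, Sgce, Peg10 and Snrpn thus differed between the fits.

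**Figure D4:**
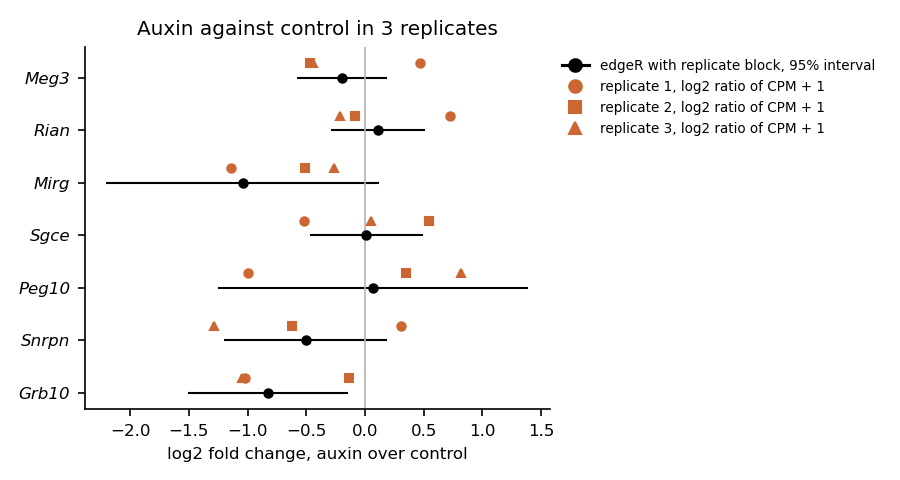
Log2 fold change, auxin over control, of the 7 genes tested (x axis). Black points and lines give the edgeR estimate with the replicate as a block and its 95% interval, and orange marks give each replicate's log2 ratio of CPM + 1. The interval of Grb10 alone lies on one side of 0, and its adjusted p is 0.775.

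The neighbours of these genes were read from lists drawn up with the members, and their counts are given for the fit without and with the block. Around Igf2 and H19, 1 of 7 genes was expressed enough to be tested, Mrpl23, a mitochondrial ribosomal protein gene at 2.24 to 7.75 CPM, and Th, the tyrosine hydroxylase gene, lay between 0.119 and 1.35 CPM. Mrpl23 stood at -0.28 ± 0.36 with the block. In the adjoining Kcnq1ot1 domain 10 of 11 genes were tested, 0 were called in either fit and the median log2 fold change was 0.03 without and 0.13 with the block. Its most abundant genes were Cd81, a tetraspanin, at 0.08 ± 0.12 (SE) with the block and Kcnq1ot1, the noncoding RNA that silences the domain, at -0.15 ± 0.10. Of 8 genes flanking the Dlk1-Dio3 domain or lying in it, 7 were tested and 0 called, with medians of 0.00 in both fits. Among them Wars, a tryptophanyl-tRNA synthetase, stood at 0.00 ± 0.11 and Yy1, a transcription factor, at 0.31 ± 0.11 with the block.

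Of 10 genes around Peg10, 8 were tested and 0 called, with medians of -0.12 and -0.04, and Ppp1r9a (neurabin) and Vps50 stood at 0.10 ± 0.16 and -0.15 ± 0.14 with the block. Of 8 genes around Snrpn, 5 were tested and 0 called, with medians of 0.23 in both fits. Ube3a, a ubiquitin ligase, stood at 0.07 ± 0.12 and Ndn (necdin) at 0.23 ± 0.22. All 4 genes next to Grb10 were tested and 0 called, and Fignl1 and Cobl stood at 0.18 ± 0.12 and -0.25 ± 0.12. Of 52 other imprinted genes, 42 were tested and 0 called, 25 lay above 0 and 17 below without the block, and the median was 0.03 without and 0.10 with it, against 0.00 over all genes in both fits. The most abundant, Mest, an imprinted hydrolase gene, was at 339, 553.9 and 127.8 CPM in control cells of replicates 1, 2 and 3 and at 454.3, 698.9 and 175.6 CPM in auxin-treated cells. Its log2 fold change with the block was 0.39 ± 0.08 (edgeR adjusted p = 0.485).

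A list of 13 regulators of imprints and DNA methylation held factors that keep imprints, the de novo DNA methyltransferases, Ctcf and Ctcfl, and Tet1 and Tet2, which remove methylation. All 13 were tested and edgeR called 0 in either fit. Of them 11 lay below 0 in both fits, against 50.1% and 49.6% of all genes without and with the block, and the median was -0.33 and -0.37. Trim28, the corepressor that binds imprint control regions through zinc finger proteins, stood at -0.36 ± 0.09 with the block (edgeR adjusted p = 0.636), and Uhrf1, which brings Dnmt1 to replicated DNA, at -0.08 ± 0.09. Dnmt3b, a de novo DNA methyltransferase, was called by DESeq2 with the block (log2 fold change -0.48 ± 0.13, DESeq2 adjusted p = 0.0463). It was at 31.1, 608.1 and 49.1 CPM in control cells of replicates 1, 2 and 3 and at 19.5, 505.6 and 36.5 CPM in auxin-treated cells. Zfp57, a zinc finger protein of imprints named here after its values were seen, was at 22.7, 10.8 and 47.5 CPM in control and 21.4, 5.21 and 17.9 CPM in auxin-treated cells. The 7 cohesin genes were all tested with 0 called, and Smc3 and Smc1a stood at -0.01 ± 0.08 and -0.11 ± 0.09. Of the ES cell markers 9 of 10 were tested, and 1, Klf4, was called with the block, at -1.26 ± 0.13 (edgeR adjusted p = 0.0418), while 0 were called without it. With the plates of replicate 3 as in the source values the blocked fit called 0 genes. Of the ES cell markers it called 0 without replicate 1, 0 without replicate 3 and 2 without replicate 2. The most abundant, Dppa5a and Tdgf1, stood at -0.26 ± 0.15 and -0.30 ± 0.07. The primed markers had 3 of 4 tested, with Otx2 at -0.70 ± 0.17 and Pou3f1 at -0.71 ± 0.34. Fgf5 went the other way in replicate 2, at 16.6 CPM in control and 22.3 CPM in auxin-treated cells. In the other replicates it reached at most 0.165 CPM. Of 6 primitive endoderm, 5 trophoblast and 6 fibroblast markers, 5, 3 and 4 were tested and edgeR called 0. Dab2 and Sox17 stood at -0.39 ± 0.31 and 1.21 ± 0.38, Gata3 at -0.47 ± 0.59, and the fibroblast markers Vim, Dcn, Col1a1 and Thy1 at 0.29 ± 0.14, 0.70 ± 0.40, -0.56 ± 0.77 and -0.25 ± 0.60 with the block. DESeq2 with the block called the trophoblast marker Tfap2c (log2 fold change -1.02 ± 0.25, DESeq2 adjusted p = 0.0126).

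Neighbouring genes were compared across cells by Spearman's correlation of raw counts within each replicate and condition. Meg3 and Rian, 32.2 kb apart, correlated most of the 8 neighbour pairs in each of the 6 sets. The correlation was 0.607, 0.771 and 0.461 in control cells of replicates 1, 2 and 3 (168, 371 and 85 cells) and 0.648, 0.702 and 0.555 in auxin-treated cells (169, 290 and 84 cells). Cells of a set share a culture and differ in depth, which can move a correlation of raw counts. With depth held constant in a partial correlation, the values were 0.611, 0.729 and 0.434 in control and 0.655, 0.663 and 0.486 in auxin-treated cells. For comparison, 27086 to 27416 pairs of expressed genes within 250 kb of each other were taken. Their median raw correlation was 0.0835, 0.175 and 0.0747 in control cells of replicates 1, 2 and 3. In auxin-treated cells it was 0.0891, 0.209 and 0.160, higher than in control cells in each replicate. With depth held constant the medians lay between 0.0180 and 0.0325 over the 6 sets. Between 0.102% and 1.21% of these pairs exceeded the raw correlation of Meg3 and Rian.

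Mirg correlated with Meg3, 158 kb away, at 0.415, 0.449 and 0.239 in control and 0.136, 0.570 and 0.170 in auxin-treated cells. With Rian, 68.0 kb away, it correlated at 0.323, 0.398 and 0.187 in control and 0.140, 0.424 and 0.286 in auxin-treated cells. The replicate 1 values rest on 4 and 2 cells with Mirg. Dlk1, made from the opposite parental copy, correlated with Meg3 between 0.0730 and 0.229 in the 6 sets, with Rian between 0.0880 and 0.197 and with Mirg between -0.0533 and 0.290, on 2 to 42 UMIs of Dlk1 per set, too few to read an order from. Sgce and Peg10 correlated at 0.295, 0.0844 and 0.159 in control and 0.315, 0.168 and 0.227 in auxin-treated cells. Of the expressed pairs within 250 kb, 5.28%, 79.1% and 24.8% were above it in control cells of replicates 1, 2 and 3 and 4.25%, 62.8% and 32.1% in auxin-treated cells. With depth held constant these shares were 0.285%, 20.04% and 11.6% in control and 0.190%, 4.16% and 3.72% in auxin-treated cells, so that the place of the pair in replicate 2 rests on how depth is treated. H19 and Igf2 gave a value in 3 of 6 sets, between -0.0246 and -0.00610. For pairs of the 10 genes on different chromosomes, the median lay between -0.0100 and 0.0545 in the 6 sets.

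**Figure D5:**
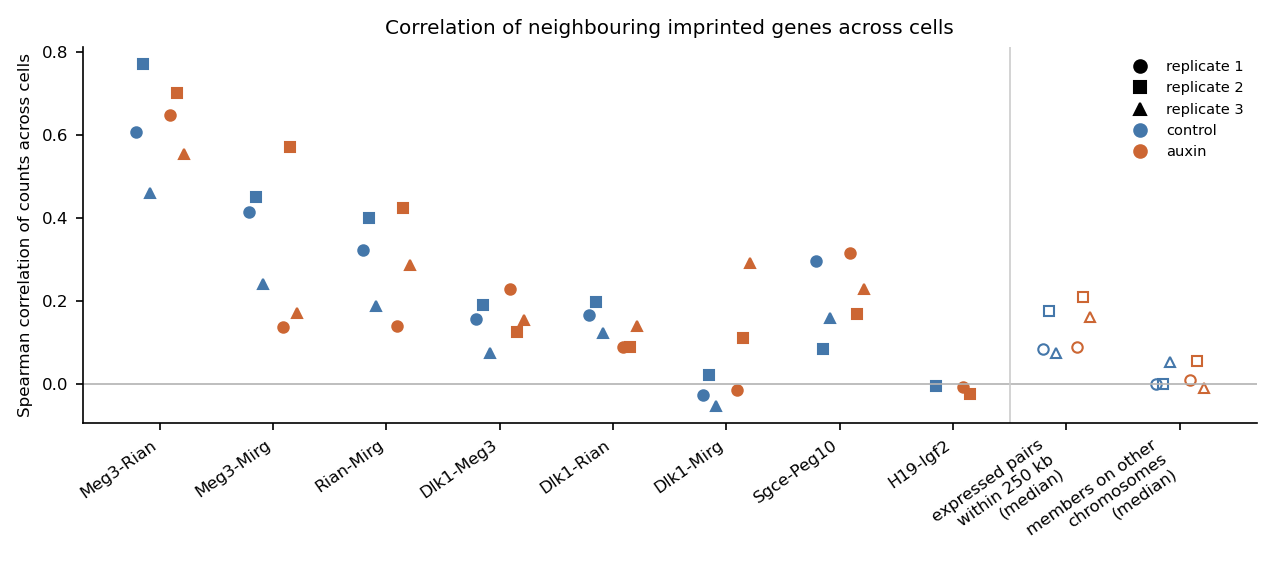
Spearman correlation of raw counts across cells (y axis) for the 8 neighbour pairs, in control (blue) and auxin-treated (orange) cells of replicates 1 (circles), 2 (squares) and 3 (triangles). Open marks give medians over expressed gene pairs within 250 kb and over pairs of the 10 genes on different chromosomes. Meg3 with Rian lies highest, between 0.461 and 0.771.

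The differences between conditions in these correlations had both signs. Averaged over the neighbour pairs with a value in both conditions (7, 8 and 7 pairs in replicates 1, 2 and 3), the correlation was 0.276, 0.263 and 0.170 in control cells and 0.220, 0.270 and 0.260 in auxin-treated cells. The difference, auxin minus control, was -0.0561, 0.00720 and 0.0903, averaging 0.0138 ± 0.0734 (SD over 3 replicates; exact sign-flip permutation, two-sided, p = 0.75). The coefficient of variation of the UMI count per cell moved from 37.9% to 34.3% between control and auxin cells of replicate 1, from 48.4% to 51.5% for replicate 2 and from 30.6% to 44.4% for replicate 3, the same order as the differences, and its part in them was not tested. With the UMI count held constant the differences were -0.0569, 0.0311 and 0.114. Pairs with few counts made up much of the averages of replicates 1 and 3. In replicate 3 the raw difference for Dlk1 and Mirg was 0.343, with Dlk1 in 2 control and 4 auxin-treated cells. In replicate 1 those of Meg3 and Rian with Mirg were -0.279 and -0.183, with Mirg in 4 and 2 cells. The raw median of expressed pairs within 250 kb was also higher with auxin in each replicate (above). The pair of Sgce and Peg10 was higher with auxin in each replicate, by 0.0195, 0.0839 and 0.0681, averaging 0.0571 ± 0.0336 (exact sign-flip permutation p = 0.25, the smallest possible), but after thinning replicate 2 gave 0.0963 without and -0.00470 with auxin. In replicate 3 only 2 cells of each condition held Peg10, on 2 and 9 UMIs, and 8 of these 9 lay in 1 cell. Dlk1 with Mirg was higher in each replicate too, by 0.0126, 0.0899 and 0.343, on few UMIs of Dlk1. Its mean was 0.149 ± 0.173 (exact sign-flip permutation p = 0.25). The values for Meg3 and Rian were 0.0410, -0.0689 and 0.0941, averaging 0.0221 ± 0.0831 (exact sign-flip permutation p = 0.75).

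The genes most like Meg3, Rian, Mirg, Sgce, Snrpn and Grb10, which averaged 1 UMI or more per cell, were sought among the genes that did so too, by the partial correlation averaged over the 6 sets. For the other 4 genes none was sought. Mirg, Grb10 and Gm37899, described next, reached that mean only in replicate 2 and Snrpn only in replicate 1, so that their values in the other sets rest on few counts. For Meg3 they were Rian (0.596, from 0.434 to 0.729 over the 6 sets), Gm37899 (0.406) and Mirg (0.319). For Rian they were Meg3, Gm37899 (0.330) and Mirg (0.286), and for Mirg they were Meg3, Gm37899 (0.293) and Rian. The closest of 9274 genes thus all came from the same stretch of chromosome 12. Gm37899 is an unconfirmed transcript on the + strand at chr12:109668869-109677585 (mm10), between Rian and Mirg. It was at 1.78, 33.9 and 3.30 CPM in the control cells of replicates 1, 2 and 3 and at 1.40, 26.1 and 4.94 CPM in the auxin-treated cells. Sgce, Snrpn and Grb10 had no such partner. The highest means were 0.169 for Sgce with Cald1, a caldesmon gene of the same chromosome but 29851 kb away, 0.140 for Snrpn with Tmem87b and 0.148 for Grb10 with Slitrk5, followed by Dennd1a and Rcbtb1 for Sgce (0.157 and 0.154), Usmg5 and Cep76 for Snrpn (0.139 and 0.132) and Asns and Ryr1 for Grb10 (0.141 and 0.140). In sparse counts correlations of this size are no finding.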

How the data were processed

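The 3 samples each held control and auxin-treated cells. Per the labels the authors aligned reads to mm10, and they deposited raw UMI counts, whole numbers, for each gene in each cell. The aligner, counter, strand setting and annotation are not given in the sources used here, so that overlapping and antisense genes cannot be told apart. The authors also deposited the percent of counts from ERCC transcripts per cell and the saturation per plate, a fraction, neither used in a test. ERCC and transgene rows held 3.30% of counts and were left out. No doublets were called, since cells were sorted 1 per well.

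The members, lists and tests were chosen with earlier results of these data known. Every member is named, with the 2 most abundant genes of each other list, those past the threshold, and the 3 genes most like a member. Gene positions and exon overlaps came from GENCODE for mm10, and genes at 0 in some replicates were counted after seeing the data. CPM are counts per 1000000 gene UMIs. Counts summed per replicate and condition were tested with edgeR 4.0.16 (filterByExpr, TMM, quasi-likelihood, Benjamini-Hochberg, 0.05) without and with a replicate block, and with DESeq2 1.42.0. Control and auxin sums of 1 replicate deviated from their group means together (correlations 0.866, 0.824 and 0.666 in replicates 1, 2 and 3), so that the numbers pair the samples. The reporting summary of the paper describes the repeats of Smart-SCRB as biological replicates. Nothing says that replicates came from separate clones, and p-values measure the spread between these samples, which may be technical. Depth per sum ranged from 6064936 to 50448320 UMIs. Thinning used seed 1 and left out cells under 20000 UMIs. Shares and correlations were computed in Python 3.11.15 with SciPy 1.17.1. The tests were run first on simulated data.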

Additional observations from a re-analysis of the deposited data

Results flagged for a closer look

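Among the 4 plates of each condition of replicate 2, the plate farthest from the others stood apart for 5 of 20 sets of values, where about 1 in 20 is expected by chance. H19 was at 0.408 CPM on 1 control plate and 0 on the other 3, and at 3.74 CPM on 1 auxin plate against 0, 0 and 0.318 CPM. Igf2 was at 0 on 1 control plate and between 0.162 and 0.164 CPM on the others. These 3 sets rest on few UMIs. Mirg was at 22.2 CPM on 1 control plate and between 17.9 and 18.3 CPM on the others. Snrpn was at 6.56 CPM on 1 control plate and between 5.22 and 5.30 CPM on the others, and all 4 lay above the auxin plates.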

How the results depend on the processing

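Without a replicate block, 0 genes were called under every alternative run, the fits without replicate 1, 2 or 3 included. With the block, edgeR called 3 genes and DESeq2 57. In fits with the block chosen after seeing the data, edgeR called from 2 genes (without replicate 3) through 14 (without replicate 1) to 32 (without replicate 2), 3 with more than 4000 detected genes per cell, 3 with the plates of replicate 3 as annotated and 0 with these plates as in the source values. None of the imprinted genes was called in any of these fits. With the block the log2 fold change changed sign for Rian (0.11 in edgeR, 0.10 in DESeq2), Peg10 (0.0689 and 0.168), Sgce (0.0101 in edgeR) and Snrpn (-0.51 and -0.60). Leaving out 1 replicate gave -0.91 to 0.91 for Peg10, -0.43 to 0.36 for Sgce and -1.16 to 0.20 for Snrpn, with the change of sign without replicate 1, and the differences of all 7 genes stayed short of the threshold. The difference in the share of positive cells changed sign for Rian with the plates as annotated (1.01 points) and without replicate 2 (-1.33 to 0.333 points over the left-out replicates), for Peg10 in a second random draw of the thinning (0.424 points), added after seeing the data, and for Dlk1, whose main value was 0.00167 points, without thinning (-1.31), at 50000 UMIs (-1.61), above 4000 genes (-0.000826), with the plates as annotated (-0.189) or as in the source values (-0.249), and over the left-out replicates (-0.668 to 0.373). The mean difference of the neighbour correlations was -0.0322 after thinning to 20000 UMIs (0.0118 in a second draw), -0.0194 with the plates as annotated, -0.0132 with replicates pooled, and -0.0244 to 0.0487 over the left-out replicates. The causes were not tested. The mean differences of Sgce, Grb10 and Mirg kept their sign under every alternative for the shares, but single replicates turned, with 3.89 and 1.24 points for Sgce, 2.84 for Grb10 and 0.510 for Mirg. H19, Igf2 and Dlk1 did not pass the filter on low counts in the reported fit, and whether more depth would have let them pass was not tested.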

Other observations

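On the 2 plates of replicate 3 that were left out of the comparisons, Meg3 was at 145.2 CPM on the plate annotated as control and 113.8 CPM on the plate annotated as auxin, against 141.5 and 103.5 CPM on the plates used. Rian was at 88.3 and 77.9 CPM. Snrpn was at 4.38 and 4.51 CPM, Grb10 at 7.16 and 4.83 CPM, Sgce at 19.6 and 20.1 CPM and Peg10 at 2.12 and 1.29 CPM on the same 2 plates. Mirg was at 3.58 and 0.805 CPM, against 3.79 and 2.99 CPM on the plates used. H19 was at 0 and 1.45 CPM, against 0 on both plates used. Igf2 was at 0.663 and 1.93 CPM and Dlk1 at 0.663 and 1.61 CPM, and the second value of each was above that of all 15 other plates.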
